A study of Homo sapiens with 26 samples.

Results

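The ZFP36 family of mRNA decay factors was examined as a set of binding regions of the glucocorticoid receptor (GR) around its 3 genes, ZFP36, ZFP36L1 and ZFP36L2. A region belonged to the family when its midpoint had its nearest protein-coding gene start (GENCODE release 44, build hg38) within 100 kb at one of these genes. This rule gave 15 of the 10740 regions of the table, with 3 at ZFP36, 2 at ZFP36L1 and 10 at ZFP36L2. GR occupancy had been measured by chromatin immunoprecipitation with sequencing in A549 cells, an established line derived from a human lung carcinoma. All cells had been infected with an adenovirus, either Ad-IκBαΔN, which carries a truncated IκBα that inhibits the transcription factor NF-κB, or Ad-GFP, the control virus that carries green fluorescent protein. Within each virus the cells received, for 1 h, budesonide (a synthetic glucocorticoid, 300 nM) together with the cytokine IL1B (1 ng/ml), named I+B, or budesonide alone at the same dose, named Bud, or were left untreated, named NS. Every group thus carries a virus, and all come from 1 cell line.

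ZFP36 (tristetraprolin), ZFP36L1 and ZFP36L2 are zinc-finger proteins that bind AU-rich elements in the untranslated 3′ ends of mRNAs. They recruit the CCR4-NOT deadenylase, after which the poly(A) tail is shortened, the cap is removed and the mRNA is degraded. Many of their known targets encode cytokines and other inflammatory proteins, so the family is known as a brake on inflammatory gene expression. ZFP36 is itself induced by inflammatory stimuli and by glucocorticoids, and its protein is held inactive when phosphorylated by the p38 and MK2 kinases. GR is a ligand-activated transcription factor that binds DNA directly at glucocorticoid response elements (GREs) or is found at sites of other factors, NF-κB among them. Marker expression and mRNA levels were not measured in the values used here, so the results describe GR at the genes and not their expression.

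The labels describe 26 libraries, of which 12 were made with a GR antibody, 2 for each of the 6 groups. The table holds 1 value per region and group. There was therefore no replicate to set against any difference, no test was made, and depth per library is unknown. The deposited values were read as log2(signal + 1). Signal was taken to be a mean coverage per base over the 400 bp of a region, which the sources used here do not state. A region was called higher or lower when its log2 difference between 2 groups was at least 1 in size, that is, 2-fold once 1 has been added to the signal, a measure that understates differences at low signal. The values of the groups appear to carry different scale factors, so percentiles among all regions and differences set beside the median of all regions are affected less by a shift in scale than a distance from 0. As deposited, the median difference of all regions for I+B against Bud in Ad-GFP was 0.92. It was -0.12 with every group set to a common median, -0.13 after quantile normalization, 0.42 with groups centred on the authors' unchanged class, and -0.61 when the steps on which the values fall were divided out.

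The genomic sequence of the regions on which the results turn is shown from hg38, on the plus strand, as the central 120 bases of each region, or 200 bases where a motif lay across the edge of that window. Capitals mark motif matches: a GRE (the half-sites AGAACA and TGTTCT with 3 bases between them, at most 2 mismatches in the 12 fixed bases), an exact κB motif, the site of NF-κB, or the AP-1 motif TGACTCA, on either strand, and a window with no capitals holds none of them. The first 5 windows belong to regions with at least 2-fold more GR signal in I+B than in Bud in Ad-GFP cells, and the sixth is the strongest region of the family.
ZFP36, 3.94 kb upstream (chr19:39402850-39402969): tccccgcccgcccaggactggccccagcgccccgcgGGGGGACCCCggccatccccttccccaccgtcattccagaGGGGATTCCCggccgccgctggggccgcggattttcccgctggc
ZFP36L1, 11.6 kb downstream (chr14:68784589-68784708): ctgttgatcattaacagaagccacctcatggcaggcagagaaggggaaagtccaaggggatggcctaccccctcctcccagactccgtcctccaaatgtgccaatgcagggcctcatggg
ZFP36L2, 67.5 kb downstream (chr2:43158975-43159174): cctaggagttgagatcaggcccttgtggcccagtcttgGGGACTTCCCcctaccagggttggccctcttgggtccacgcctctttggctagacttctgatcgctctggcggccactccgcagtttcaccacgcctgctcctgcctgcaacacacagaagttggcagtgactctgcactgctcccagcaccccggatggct
ZFP36L2, 0.461 kb downstream (chr2:43226086-43226205): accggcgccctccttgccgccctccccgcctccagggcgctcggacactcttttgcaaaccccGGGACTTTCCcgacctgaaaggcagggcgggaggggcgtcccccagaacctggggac
ZFP36L2, 78.6 kb upstream (chr2:43305183-43305302): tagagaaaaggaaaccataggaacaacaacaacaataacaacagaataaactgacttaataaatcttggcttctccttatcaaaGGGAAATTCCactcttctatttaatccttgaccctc
ZFP36, 2.89 kb downstream (chr19:39409676-39409795): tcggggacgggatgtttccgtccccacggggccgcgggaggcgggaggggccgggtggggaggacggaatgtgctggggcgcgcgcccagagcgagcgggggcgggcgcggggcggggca
The next 3 windows hold the GRE matches nearest to a region midpoint in the family, all at ZFP36L2, in regions whose I+B and Bud signals in Ad-GFP were within 2-fold of each other.
ZFP36L2, 95.3 kb downstream (chr2:43131270-43131389): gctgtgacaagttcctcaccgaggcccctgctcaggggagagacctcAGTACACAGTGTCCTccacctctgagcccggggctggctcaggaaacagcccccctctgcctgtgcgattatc
ZFP36L2, 43.3 kb upstream (chr2:43269871-43269990): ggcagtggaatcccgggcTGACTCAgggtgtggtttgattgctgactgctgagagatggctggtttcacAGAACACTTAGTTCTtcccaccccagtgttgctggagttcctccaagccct
ZFP36L2, 62.0 kb upstream (chr2:43288560-43288679): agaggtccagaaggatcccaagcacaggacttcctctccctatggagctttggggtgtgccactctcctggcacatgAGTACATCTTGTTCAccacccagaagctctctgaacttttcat

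ZFP36 (ENSG00000128016.7, chr19:39406847-39409412, plus strand) had 3 regions within 5.09 kb of its start, and the authors had placed one in each of their classes, unchanged, increasing and decreasing. The sources used here do not give the definition of these classes. The region 2.89 kb downstream (chr19:39409536-39409935) lies just past the 3′ end of the gene, overlaps the microRNA gene MIR4530, and is almost as close to the start of PLEKHG2, 2.93 kb away. Its signal in Ad-IκBαΔN cells was 825 in I+B, 883 in Bud and 9.31 in NS. In Ad-GFP cells it was 451 in I+B, 997 in Bud and 19.9 in NS. This region had the second highest signal of all 10740 in both Bud groups and the third highest in I+B of Ad-IκBαΔN, against rank 39 in I+B of Ad-GFP. The log2 difference of I+B against Bud was -0.10 in Ad-IκBαΔN and -1.14 in Ad-GFP, the second a fold of 0.453. The Ad-GFP value stayed between -2.72 and -1.13 under every scaling and setting tried.

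The region 3.94 kb upstream of ZFP36 (chr19:39402710-39403109) is intergenic between protein-coding genes, overlaps the long non-coding RNA gene ENSG00000288919, and was of the authors' increasing class. In Ad-IκBαΔN cells its signal was 30.0 in I+B, 22.6 in Bud and 11.3 in NS. In Ad-GFP cells its signal was 522 in I+B, 18.4 in Bud and 28.6 in NS. As deposited, the highest signal was that of I+B in Ad-GFP, where the region ranked 24 of all regions. It ranked 6003 in Bud of the same virus and 3940 in I+B of Ad-IκBαΔN. By rank, untreated cells stood high too, at 25 in NS of Ad-GFP and 351 in NS of Ad-IκBαΔN. I+B against NS in Ad-GFP was 4.14 as deposited and 0.02 after quantile normalization. The log2 difference of I+B against Bud was 0.39 in Ad-IκBαΔN and 4.75 in Ad-GFP, a 26.9-fold difference that ranked 227 of all regions and lay between 3.17 and 4.75 over the settings tried. The third region, 5.09 kb upstream (chr19:39401561-39401960, intergenic), had a signal in Ad-IκBαΔN of 50.7 in I+B, 55.4 in Bud and 11.5 in NS. In Ad-GFP it had 142 in I+B, 76.7 in Bud and 17.8 in NS, so both budesonide groups were above NS in both viruses as deposited, which turned round under quantile normalization.

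Summed over its 3 regions, ZFP36 carried a signal of 906 in I+B, 961 in Bud and 32.1 in NS in Ad-IκBαΔN, and of 1115 in I+B, 1092 in Bud and 66.3 in NS in Ad-GFP. The sum in Ad-GFP was thus nearly the same with and without IL1B as deposited, but it was distributed differently. The highest region held 91.1% of the sum in I+B and 91.9% in Bud of Ad-IκBαΔN, where this was the region downstream of the gene. It held 46.8% of the sum in I+B of Ad-GFP, where this was the region 3.94 kb upstream, and 91.3% in Bud of Ad-GFP, where it was the downstream region. Shares within a group do not depend on the scale of that group.

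**Figure D1:**
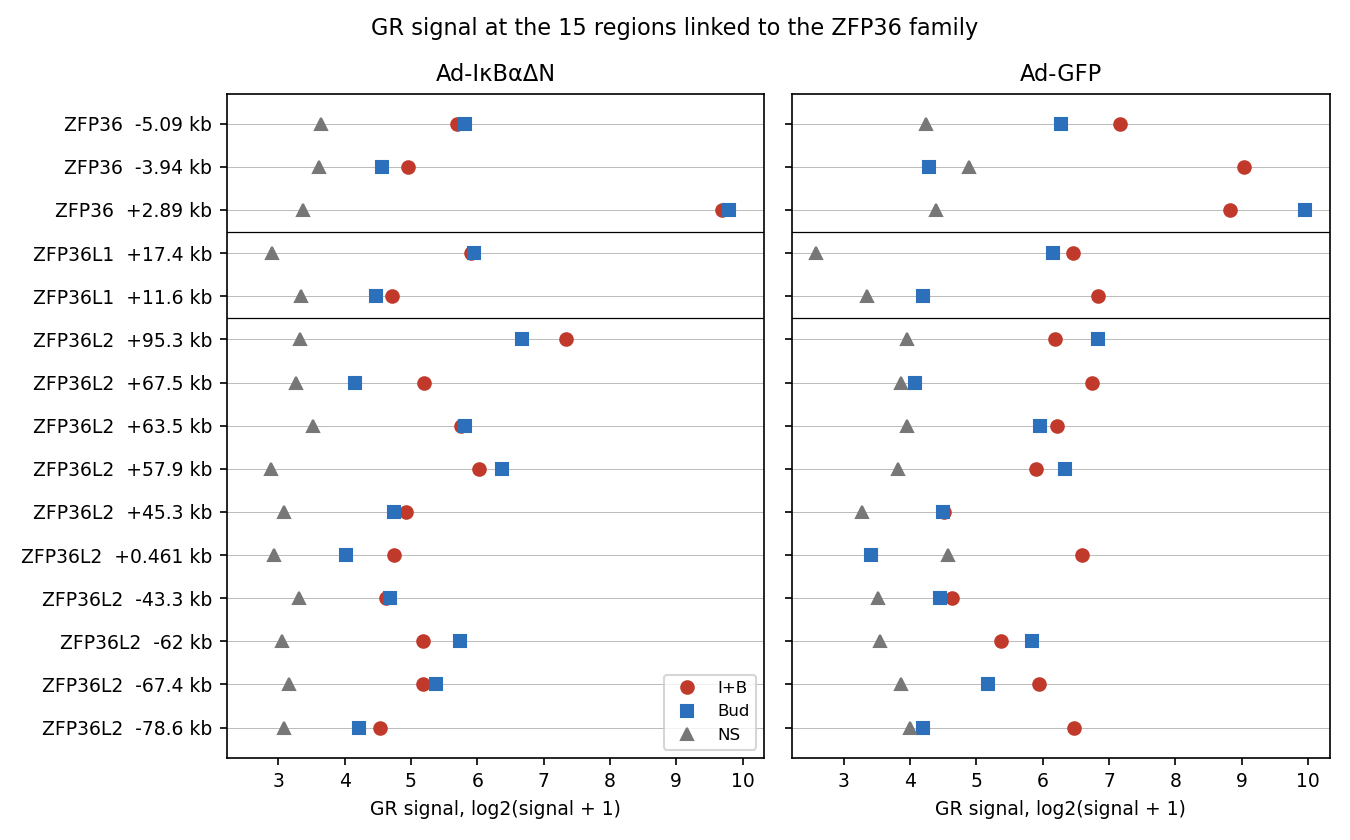
GR signal, as log2(signal + 1) on the horizontal axis, at each of the 15 regions linked to ZFP36, ZFP36L1 and ZFP36L2 in Ad-IκBαΔN (left) and Ad-GFP (right); each point is the authors' single value for I+B (circle), Bud (square) or NS (triangle), and positive distances are downstream of the gene start. The region 2.89 kb downstream of ZFP36 was at 9.79 with Bud in Ad-IκBαΔN and 9.96 with Bud in Ad-GFP, and the region 3.94 kb upstream reached 9.03 in I+B of Ad-GFP against 4.95 in I+B of Ad-IκBαΔN.

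ZFP36L1 (ENSG00000185650.10, chr14:68787660-68796253, minus strand) had 2 regions, both downstream of its 3′ end and between protein-coding genes. The region 11.6 kb downstream of the start (chr14:68784449-68784848, increasing class) had a signal of 25.3 in I+B, 21.2 in Bud and 9.12 in NS in Ad-IκBαΔN. In Ad-GFP its signal was 113 in I+B, 17.2 in Bud and 9.17 in NS. As at ZFP36, 1 group stood above the others in signal as deposited, I+B in Ad-GFP. The I+B against Bud difference was 0.25 in Ad-IκBαΔN and 2.65 in Ad-GFP, a 6.28-fold difference. The Ad-GFP value lay between 1.09 and 2.65 over the settings, and the Ad-IκBαΔN value between -0.31 and 0.25. The region 17.4 kb downstream (chr14:68778699-68779098, within ENSG00000289583, a long non-coding RNA gene) was of the decreasing class. Its signal was 58.5 in I+B, 60.9 in Bud and 6.52 in NS in Ad-IκBαΔN, and 87.1 in I+B, 70.7 in Bud and 5.00 in NS in Ad-GFP. It was the family member with the lowest untreated signal in Ad-GFP and had the second highest Bud against NS difference of the family there, 3.58 (11.9-fold), with 3.04 (8.23-fold) in Ad-IκBαΔN. Neither call was lost under any setting.

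ZFP36L2 (ENSG00000152518.8, chr2:43222402-43226606, minus strand) had 10 regions that ran from 95.3 kb downstream to 78.6 kb upstream of its start. The authors had placed 1 of them in the increasing class, 7 in the unchanged class and 2 in the decreasing class. One region lay in the gene itself, 0.461 kb downstream of the start (chr2:43225946-43226345), with its midpoint in the intron and 30 bases in UTR. Its signal in Ad-IκBαΔN was 25.8 in I+B, 15.2 in Bud and 6.59 in NS. In Ad-GFP the signal was 96.2 in I+B, 9.7 in Bud and 22.7 in NS. In Ad-GFP the Bud value was thus below NS, with a log2 difference of -1.15, and the difference of I+B against Bud was 0.72 in Ad-IκBαΔN and 3.18 in Ad-GFP, a 9.08-fold difference. The Ad-GFP difference of I+B against Bud lay between 1.44 and 3.18 over the settings tried.

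A further pair of ZFP36L2 regions were also at least 2-fold higher in I+B than in Bud in Ad-GFP as deposited, with Bud above NS. Both were of the authors' unchanged class. The region 67.5 kb downstream (chr2:43158875-43159274, within the long non-coding RNA gene LINC02580) had a signal of 35.6 in I+B, 16.9 in Bud and 8.67 in NS in Ad-IκBαΔN. It had 106 in I+B, 15.9 in Bud and 13.5 in NS in Ad-GFP. Its I+B against Bud difference was 1.03 in Ad-IκBαΔN, barely past 2-fold and under it with most other settings, and 2.66 in Ad-GFP, where it stayed between 1.11 and 2.66. The region 78.6 kb upstream (chr2:43305043-43305442, an intron of THADA) had a signal of 22.2 in I+B, 17.6 in Bud and 7.50 in NS in Ad-IκBαΔN. It had 87.5 in I+B, 17.2 in Bud and 15.0 in NS in Ad-GFP. That difference of I+B against Bud was 0.31 in Ad-IκBαΔN and 2.28 in Ad-GFP, and the Ad-GFP value was 0.73, no longer 2-fold, with the steps divided out.

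The region with the highest signal at ZFP36L2 behaved otherwise. At 95.3 kb downstream (chr2:43131130-43131529, in LINC02580), its signal in Ad-IκBαΔN was 161 in I+B, 102 in Bud and 8.98 in NS. In Ad-GFP the signal was 71.5 in I+B, 114 in Bud and 14.4 in NS. The I+B value was above Bud in Ad-IκBαΔN and below it in Ad-GFP, with log2 differences of 0.66 and -0.66, and neither sign changed under any setting. This region was also just inside the 100 kb limit of the rule. The nearest regions outside it on this gene were 140 kb downstream, with an I+B against Bud difference of -0.46 in Ad-IκBαΔN and 0.46 in Ad-GFP, and 116 kb upstream, with 0.13 and 2.29 in the same order of viruses.

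The other 6 ZFP36L2 regions lay 63.5, 57.9 and 45.3 kb downstream, in LINC02580, and 43.3, 62.0 and 67.4 kb upstream, in introns of THADA. Their signal with budesonide in Ad-IκBαΔN was highest at the region 57.9 kb downstream, with 64.3 in I+B, 81.7 in Bud and 6.43 in NS, against 58.7 in I+B, 79.4 in Bud and 13.1 in NS in Ad-GFP. It was lowest at the region 43.3 kb upstream, with 23.7 in I+B, 24.9 in Bud and 8.94 in NS in Ad-IκBαΔN and 23.9 in I+B, 20.9 in Bud and 10.5 in NS in Ad-GFP. Budesonide alone gave all of these regions a signal above NS in both viruses as deposited, and as deposited added IL1B moved none of them by 2-fold. Their I+B against Bud differences ran between -0.56 and 0.19 in Ad-IκBαΔN and between -0.47 and 0.78 in Ad-GFP. With the steps divided out, all of them but the one 67.4 kb upstream were at least 2-fold lower in I+B than in Bud in Ad-GFP, with -1.28, -1.97 and -1.45 downstream and -1.29 and -1.99 upstream.

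With budesonide alone, GR signal was above NS at most regions of the family. In Ad-IκBαΔN 13 of 15 regions were at least 2-fold higher in Bud than in NS, where 59.3% of all regions were, and 0 were lower, where 1.06% of all were. Their median log2 difference was 2.18, against 1.37 over all regions. In Ad-GFP 9 of 15 were higher, where 57.9% of all regions were, and 1 was lower, where 8.14% of all were, with a median of 1.30 against 1.37 over all regions. The lower one was the region in ZFP36L2. The family's median less that of all regions was 0.81 in Ad-IκBαΔN and -0.07 in Ad-GFP as deposited, 0.35 and -0.55 after quantile normalization, and 0.49 and -0.47 without the 25% of regions lowest in mean signal. The counts depend on the scale too. With a common median, quantile normalization or centring on the unchanged class, 5, 5 and 4 regions were higher and 0, 1 and 0 lower in Ad-IκBαΔN, and 4, 2 and 2 were higher and 4, 4 and 5 lower in Ad-GFP. Of all regions, 18.9%, 21.5% and 10.2% were then higher in Ad-IκBαΔN, and 24.3%, 22.0% and 14.4% in Ad-GFP. The shares of all regions then lower were 27.2%, 21.8% and 37.1% in Ad-IκBαΔN, and 32.6%, 22.5% and 40.7% in Ad-GFP. The region downstream of ZFP36 and the one 17.4 kb downstream of ZFP36L1 kept their calls in both viruses under all settings, the first at 85.7-fold in Ad-IκBαΔN and 47.6-fold in Ad-GFP as deposited.

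Budesonide with IL1B, against NS, gave 15 of 15 regions at least 2-fold higher in both viruses as deposited. Over all regions, 69.1% were higher and 0.0466% lower in Ad-IκBαΔN, against 93.7% higher and 0% lower in Ad-GFP. The family's median differences were 2.02 in Ad-IκBαΔN, against 1.48 over all regions, and 2.26 in Ad-GFP, against 2.49 over all regions. In Ad-GFP, dividing out the steps left 6 regions higher and 0 lower, a common median 4 higher and 2 lower, quantile normalization 1 higher and 3 lower, and centring on the unchanged class 4 higher and 2 lower. In Ad-IκBαΔN those 4 scalings left 11, 4, 4 and 4 regions higher and 0, 0, 1 and 0 lower. The shares of all regions then higher were 46.9%, 16.7%, 20.7% and 9.34% in Ad-IκBαΔN and 48.7%, 19.3%, 19.9% and 19.7% in Ad-GFP. Those then lower were 0.372%, 13.2%, 21.2% and 28.3% in Ad-IκBαΔN and 1.31%, 14.5%, 19.9% and 14.0% in Ad-GFP. These values share the NS group with those of budesonide alone, and I+B against Bud shares the other groups with both.

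Adding IL1B to budesonide divided the family in Ad-GFP cells. In Ad-IκBαΔN 1 of 15 regions was at least 2-fold higher in I+B than in Bud, where 9.65% of all regions were, and 0 were lower, where 0.94% of all were. In Ad-GFP 5 of 15 were higher, where 48.9% of all regions were, and 1 was lower, where 6.07% of all were. The family's share of higher regions was thus not above that of the table. The median difference was -0.05 in Ad-IκBαΔN, against 0.26 over all regions, and 0.30 in Ad-GFP, against 0.92 over all regions. The 5 higher regions were 1 each at ZFP36 and ZFP36L1 and 3 at ZFP36L2, and the lower one was the region downstream of ZFP36. With a common median 5 regions were higher and 5 lower in Ad-GFP, with quantile normalization 4 and 4, with the unchanged class as centre 5 and 2, and 4 and 8 once the steps were divided out. Over all regions these 4 scalings gave 37.0%, 25.5%, 43.1% and 30.3% higher and 32.1%, 26.9%, 16.3% and 43.7% lower.

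The 5 regions were those with the least GR signal in Bud of Ad-GFP, 9.7 to 18.4, against 20.9 to 997 for the other 10. Their signal in I+B as deposited was 22.2 to 35.6 in Ad-IκBαΔN and 87.5 to 522 in Ad-GFP. In I+B, 46.5% of all regions were at least 2-fold lower in Ad-IκBαΔN than in Ad-GFP. The I+B against Bud differences of the 5 were 0.25 to 1.03 in Ad-IκBαΔN and 2.28 to 4.75 in Ad-GFP. Since they were picked on the Ad-GFP difference, these figures describe them and test nothing. The plot of the family among all regions sets the difference with IL1B against the signal in Bud. Their relation over all regions was not measured in either virus, and the Bud signal enters both axes.

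Beyond the limit of the rule lay 18 further regions for which one of these genes was the nearest protein-coding start. Of these, 12 belonged to ZFP36L1, the nearest 123 kb downstream in an intron of RAD51B transcripts, and 6 to ZFP36L2. In Ad-IκBαΔN 0 of the 12 ZFP36L1 regions were at least 2-fold higher in I+B than in Bud and 1 was lower, against 9 higher and 0 lower in Ad-GFP. At ZFP36L2 1 of the 6 was higher in Ad-IκBαΔN and 3 in Ad-GFP, with 0 lower in either virus. Of all regions, 9.65% were higher and 0.94% lower in Ad-IκBαΔN, against 48.9% higher and 6.07% lower in Ad-GFP. When the link distance was cut to 50 kb the family kept 8 regions, at 10 kb it kept 4, and when genes of every type could claim a region it kept 1, since starts of non-coding genes lay nearer to the rest.

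**Figure D2:**
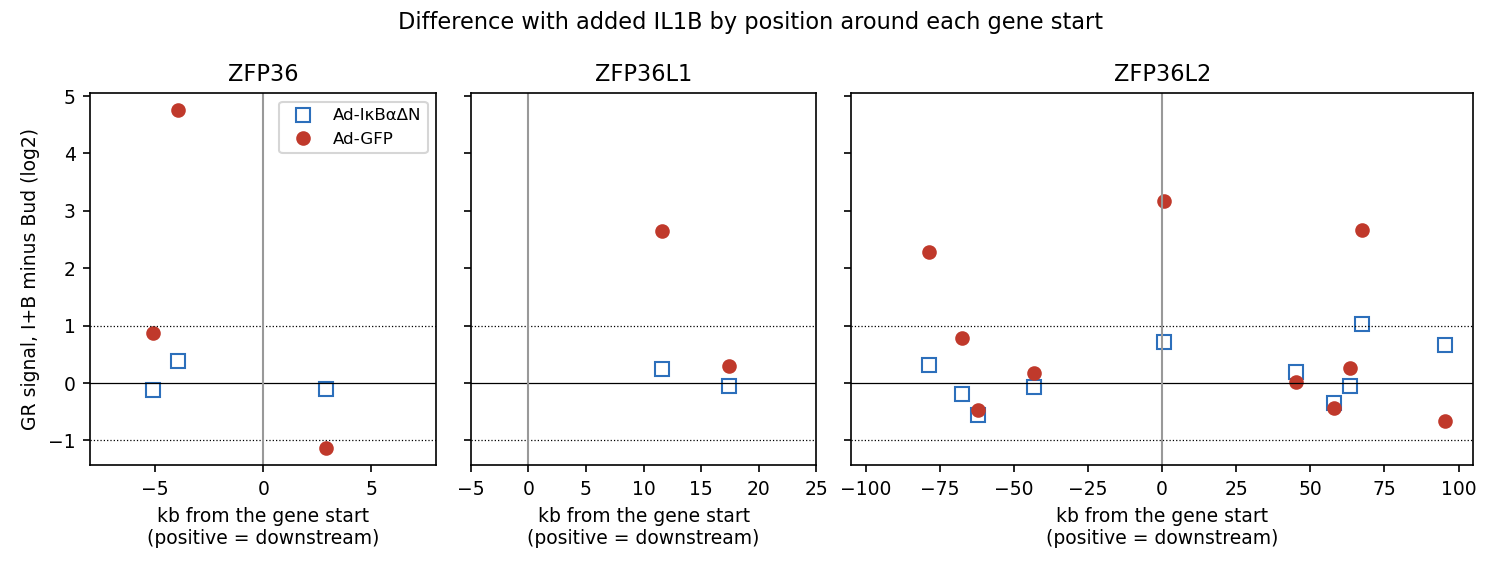
Log2 difference in GR signal of I+B against Bud (vertical axis) by distance from the gene start in kb (horizontal axis, positive is downstream) at ZFP36, ZFP36L1 and ZFP36L2; open squares are Ad-IκBαΔN, filled circles Ad-GFP, 1 value per region, and dotted lines mark 2-fold. At ZFP36 the values in Ad-GFP were 4.75 at 3.94 kb upstream and -1.14 at 2.89 kb downstream, while both Ad-IκBαΔN values were under 0.4.

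**Figure D3:**
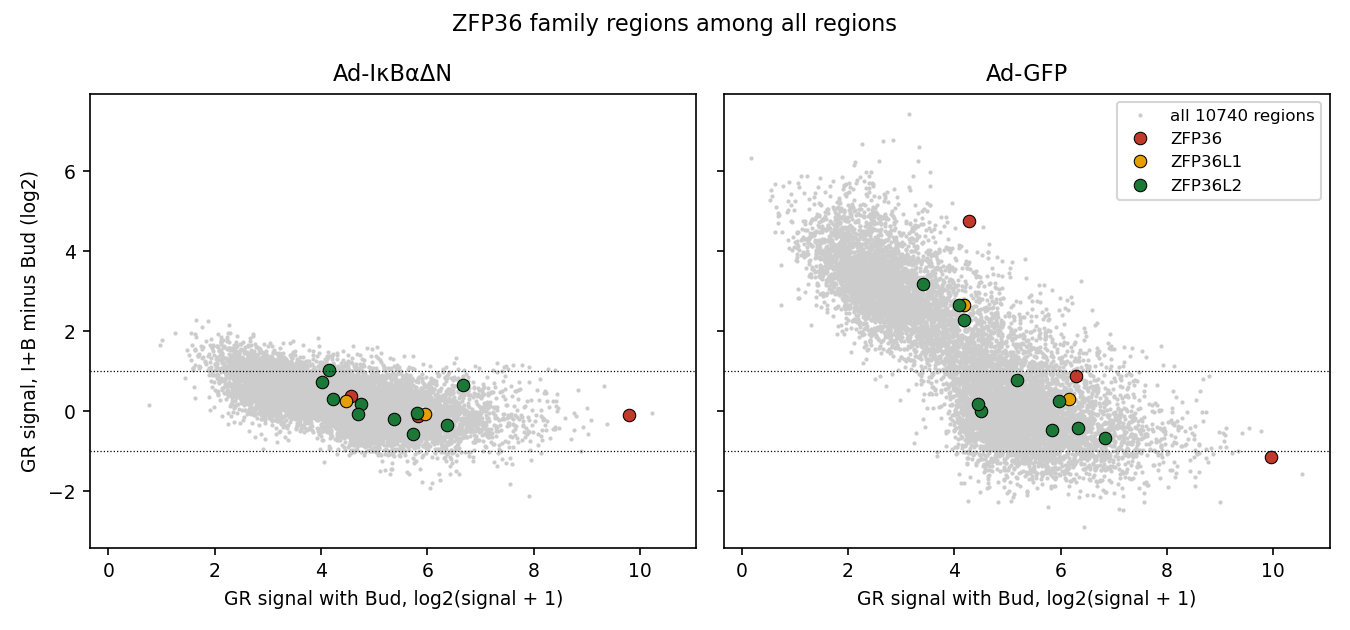
Log2 difference in GR signal of I+B against Bud (vertical axis) by the Bud signal as log2(signal + 1) (horizontal axis) for all 10740 regions in grey and the 15 of the family in colour, in Ad-IκBαΔN (left) and Ad-GFP (right); dotted lines mark 2-fold. The region 3.94 kb upstream of ZFP36 lies at the upper edge of the cloud in Ad-GFP with 4.75, and the region 2.89 kb downstream lies at the far right in both panels.

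Between the viruses, the regions differed least with budesonide alone. In Bud 0 of 15 were at least 2-fold higher and 0 lower in Ad-IκBαΔN than in Ad-GFP, against 4.03% of the table higher and 0.0186% lower, and the family's differences ran between -0.46 and 0.60 with a median of 0.04. In I+B 1 of 15 was higher in Ad-IκBαΔN, where 5.97% of all regions were, and 6 were lower, where 46.5% of all were, with a median of -0.57 against -0.85 over all regions. The higher one was 95.3 kb downstream of ZFP36L2, with 161 in Ad-IκBαΔN and 71.5 in Ad-GFP. The largest difference was that of the region 3.94 kb upstream of ZFP36, which at -4.08, with 30.0 in Ad-IκBαΔN and 522 in Ad-GFP, was at percentile 0.587 of all regions. Under a common median 4 regions were higher and 3 lower in I+B, under quantile normalization 4 and 1, under the unchanged class as centre 2 and 5, and 4 and 2 once the steps were divided out. Over all regions these gave 25.4%, 24.5%, 14.3% and 25.7% higher and 24.4%, 24.3%, 35.9% and 22.4% lower.

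The response to added IL1B itself was compared between viruses as the difference of the I+B against Bud differences, Ad-IκBαΔN minus Ad-GFP. It was at least 2-fold higher in 2 of 15 regions, where 7.98% of all regions were, and at least 2-fold lower in 6, where 47.4% of all were. Its median was -0.35 over the family and -0.84 over all regions. It was -4.35 at the region 3.94 kb upstream of ZFP36, at percentile 1.29 of all, and -2.40 at the region 11.6 kb downstream of ZFP36L1. The first lay between -4.35 and -2.95 over the settings and the second between -2.40 and -1.17. At the region in ZFP36L2 it was -2.46, and -0.98, under 2-fold, after quantile normalization. The 2 higher regions were 95.3 kb downstream of ZFP36L2, with 1.32, and 2.89 kb downstream of ZFP36, with 1.04, and both stayed at 2-fold or more under every setting. The counts became 4 higher and 4 lower with a common median, 3 and 2 with quantile normalization, 2 and 5 with the unchanged class as centre, and 4 and 3 once the steps were divided out. Of all regions, 28.0%, 24.8%, 15.5% and 28.5% were then higher and 32.0%, 24.8%, 41.0% and 30.6% lower.

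Untreated cells showed a further difference between viruses. In NS, 14 of 15 regions had less signal in Ad-IκBαΔN than in Ad-GFP, with a median difference of -0.59, against 0.04 over all regions. The smallest of these 14 differences was -0.01, at the region 11.6 kb downstream of ZFP36L1. That value was at percentile 46.7 of all regions, so a difference below 0 was common in the table. By the 2-fold call 0 were higher, where 7.21% of all regions were, and 3 were lower, where 2.77% of all were. These were the regions 3.94 kb upstream of ZFP36 (-1.26), 2.89 kb downstream of ZFP36 (-1.02, and -0.80 with a pseudocount of 5) and 0.461 kb downstream of ZFP36L2 (-1.64). The last, at 6.59 in Ad-IκBαΔN and 22.7 in Ad-GFP, had the eleventh lowest value of all 10740 regions. After quantile normalization 7 were lower, where 19.7% of all regions were lower and 19.3% higher. In Ad-IκBαΔN 3 of 15 regions lay at or above percentile 90 of all regions in NS, against 10 of 15 in Ad-GFP. The 3 ZFP36 regions were at percentiles 97.1, 96.7 and 80.8 in Ad-IκBαΔN and 98.5, 99.8 and 99.2 in Ad-GFP, listed by position along the chromosome. The region in ZFP36L2 was at percentile 22.1 in Ad-IκBαΔN and 99.6 in Ad-GFP. All untreated signals of the family were low, 6.43 to 11.5 in Ad-IκBαΔN and 5.00 to 28.6 in Ad-GFP, and no step was found in the untreated Ad-IκBαΔN values, unlike those of the other groups. The part of that in this difference was not tested.

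Motif matches had not been used to choose the regions, but the motifs were chosen with earlier results of these data known. The split below was made on the I+B against Bud difference, and motif shares over all regions were not computed for that split. Of the 5 regions that were higher in I+B than in Bud in Ad-GFP, 4 held a κB motif, 0 a GRE and 0 an AP-1 motif, and of the other 10 regions 1 held a κB motif, 4 a GRE and 4 an AP-1 motif. Over the family a κB motif was in 33.3% of regions, against 21.3% of all regions. It was in 40.3% of the increasing class, 11.8% of the unchanged class and 4.49% of the decreasing class. A GRE was in 26.7% of the family and 14.7% of all regions, and in 2.63% of windows placed 5 kb away. By class it was in 7.18% of increasing, 18.6% of unchanged and 21.3% of decreasing regions. An AP-1 motif was in 26.7% of the family and 22.8% of all regions, with 25.0%, 25.4% and 16.4% in those classes. With 15 regions, each of which counts for 6.67 percentage points, these shares are descriptions. When 1 mismatch was allowed in place of 2, 1 family region held a GRE, 43.3 kb upstream of ZFP36L2.

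The region 3.94 kb upstream of ZFP36 had the most κB matches, 4, of which 2 overlap with an offset of 1 base. The first pair lies in the window printed for that region, 19 bases before and 21 bases after the midpoint, and the overlapping pair 177 and 178 bases after it. The region in ZFP36L2 had 2, with one 8 bases after the midpoint. The regions 67.5 kb downstream and 78.6 kb upstream of ZFP36L2 had 1 each. The region 11.6 kb downstream of ZFP36L1 was the higher region with no match to any of the motifs. The region 2.89 kb downstream of ZFP36, second of all regions with budesonide, also held no GRE, κB or AP-1 match, which says only that these letters are not in its 400 bases. Of the RefSeq promoter sequences (GRCh38, 300 bases around a start), 1 matched ZFP36 and 2 matched ZFP36L1, and none of the 3 held a GRE, κB or AP-1 motif, where 1.41%, 5.91% and 4.95% of 35116 promoters do.

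Genes whose regions followed the strongest region of each member most closely were found by the Euclidean distance over the 6 log2 values, with 1 region per gene. For the region downstream of ZFP36 the nearest were those of NFKBIA, which encodes IκBα, at 0.99, SLC45A4 at 1.29 and SKOR1 at 1.74. The NFKBIA region, 0.724 kb downstream of that gene's start, had a signal of 535 in I+B, 668 in Bud and 9.04 in NS in Ad-IκBαΔN, and 614 in I+B, 871 in Bud and 14.5 in NS in Ad-GFP. For the region 11.6 kb downstream of ZFP36L1 they were those of BMERB1 at 0.32, STAT5B at 0.35 and DIO3 at 0.36. For the region 95.3 kb downstream of ZFP36L2 they were those of TOB1 at 0.36, EDN3 at 0.54 and C15orf39 at 0.55. The TOB1 region, 82.2 kb upstream of its gene, had 157 in I+B, 108 in Bud and 8.57 in NS in Ad-IκBαΔN, and 77.0 in I+B, 140.4 in Bud and 15.9 in NS in Ad-GFP, so it too had more signal with IL1B than without in Ad-IκBαΔN and less in Ad-GFP. A small distance says that the 6 values were alike and no more.

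Genes of the pathway were taken from lists and linked to regions by the same rule. Their counts for I+B against Bud stand beside 9.65% of all regions higher and 0.94% lower in Ad-IκBαΔN, with a median of 0.26, and 48.9% higher and 6.07% lower in Ad-GFP, with a median of 0.92. Among 30 genes whose mRNAs carry AU-rich elements and are reported targets of the family, 27 had 85 regions. Of these regions 10 were higher and 0 lower in I+B than in Bud in Ad-IκBαΔN, with a median of 0.30, against 65 higher and 0 lower in Ad-GFP with a median of 2.74. The Ad-GFP median was at least 0.99 under each scaling, above the median of all regions each time, and the Ad-IκBαΔN median became -0.28 with the steps divided out. CCL20, a chemokine gene, had its strongest region 8.01 kb downstream with 17.5 in I+B and 7.34 in Bud in Ad-IκBαΔN, and 415 in I+B and 7.94 in Bud in Ad-GFP. The strongest region of PTGS2, the inducible cyclooxygenase gene, had 53.4 in I+B and 68.4 in Bud in Ad-IκBαΔN, and 530.2 in I+B and 72.6 in Bud in Ad-GFP. CCL2 and CXCL8, both chemokine genes, had a difference of 3.97 in Ad-GFP, with 0.05 and -0.20 in Ad-IκBαΔN. BIRC3, an apoptosis inhibitor, had -0.37 in Ad-IκBαΔN and 2.74 in Ad-GFP. These 5 genes were picked for the highest signal in any group, which was I+B of Ad-GFP for each, so that they stand high there follows from the choice. Added after the values were seen, the strongest regions of MCL1, CDKN1A and CSF3 had a difference below 0 in Ad-GFP, with -0.03 in Ad-IκBαΔN and -0.74 in Ad-GFP at MCL1, 0.26 and -0.90 at CDKN1A, and -0.55 and -0.52 at CSF3.

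The deadenylase step was represented by CCR4-NOT subunits, poly(A) nucleases and the TOB and BTG adaptors, of which 10 of 20 genes had 21 regions. In I+B against Bud, 1 was higher and 0 lower in Ad-IκBαΔN, with a median of 0.56, and 8 were higher and 2 lower in Ad-GFP, with a median of 0.58 that became -0.46 with a common median, -0.22 with quantile normalization and -0.95 with the steps divided out. The adaptor genes TOB1 and TOB2 had regions with less signal in I+B than in Bud in Ad-GFP and more in Ad-IκBαΔN. The strongest TOB2 region had 82.4 in I+B and 42.5 in Bud in Ad-IκBαΔN, and 24.8 in I+B and 61.7 in Bud in Ad-GFP. That of TOB1, 41.5 kb upstream, had 165 in I+B and 83.5 in Bud in Ad-IκBαΔN, and 64.7 in I+B and 107 in Bud in Ad-GFP. BTG1 (0.56 in Ad-IκBαΔN, 4.28 in Ad-GFP), BTG3 (0.99 and 4.54) and the deadenylase subunit gene CNOT6 (0.73 and 3.03) lay the other way in Ad-GFP.

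Of decapping and exonuclease genes, 4 of 10 had 1 region each, and 2 were higher and 0 lower in Ad-IκBαΔN and 3 higher and 0 lower in Ad-GFP. The differences in Ad-IκBαΔN and Ad-GFP were 1.26 and 3.40 at PATL1, 1.10 and 3.52 at EDC4, 0.65 and 3.03 at the exonuclease gene XRN1, and -0.60 and -0.58 at EDC3. Of other decay and stability factors, 3 of 16 genes had 9 regions, with 0 higher and 0 lower in Ad-IκBαΔN and 6 higher and 0 lower in Ad-GFP. ZC3H12A, which encodes the endonuclease Regnase-1, had its strongest region at 33.7 in I+B and 48.4 in Bud in Ad-IκBαΔN, and at 193 in I+B and 51.2 in Bud in Ad-GFP. ZC3H12C had a difference of 0.03 in Ad-IκBαΔN and 5.17 in Ad-GFP, and ELAVL1, which encodes the stabilising factor HuR, had 0.90 and 4.36 in that order.

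Of the kinases, phosphatases and 14-3-3 proteins that act on ZFP36, 11 of 19 genes had 32 regions. In I+B against Bud, 2 were higher and 1 lower in Ad-IκBαΔN, with a median of 0.19, and 16 were higher and 4 lower in Ad-GFP, with a median of 1.34 that became -0.20 with the steps divided out. DUSP1, the phosphatase that switches off p38, had its strongest region 1.32 kb upstream, with 244 in I+B, 263 in Bud and 7.09 in NS in Ad-IκBαΔN, and 367 in I+B, 286 in Bud and 9.38 in NS in Ad-GFP. MAP2K3, a kinase that activates p38, had a difference of 0.13 in Ad-IκBαΔN and 3.44 in Ad-GFP, and DUSP16 had 0.51 and 4.38. PPP2CB, a catalytic subunit of phosphatase PP2A, had 0.06 in Ad-IκBαΔN and 1.79 in Ad-GFP. The strongest region of YWHAQ, a 14-3-3 gene, had 123 in I+B and 244 in Bud in Ad-IκBαΔN, and 151 in I+B and 273 in Bud in Ad-GFP. It was lower with IL1B in both viruses, by differences of -0.98 and -0.85, each just under 2-fold. Added after the values were seen, the strongest region of MAPKAPK2, the gene of MK2, was lower too. It had 51.3 in I+B and 79.0 in Bud in Ad-IκBαΔN, and 27.2 in I+B and 93.0 in Bud in Ad-GFP, with differences of -0.61 and -1.73.

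**Figure D4:**
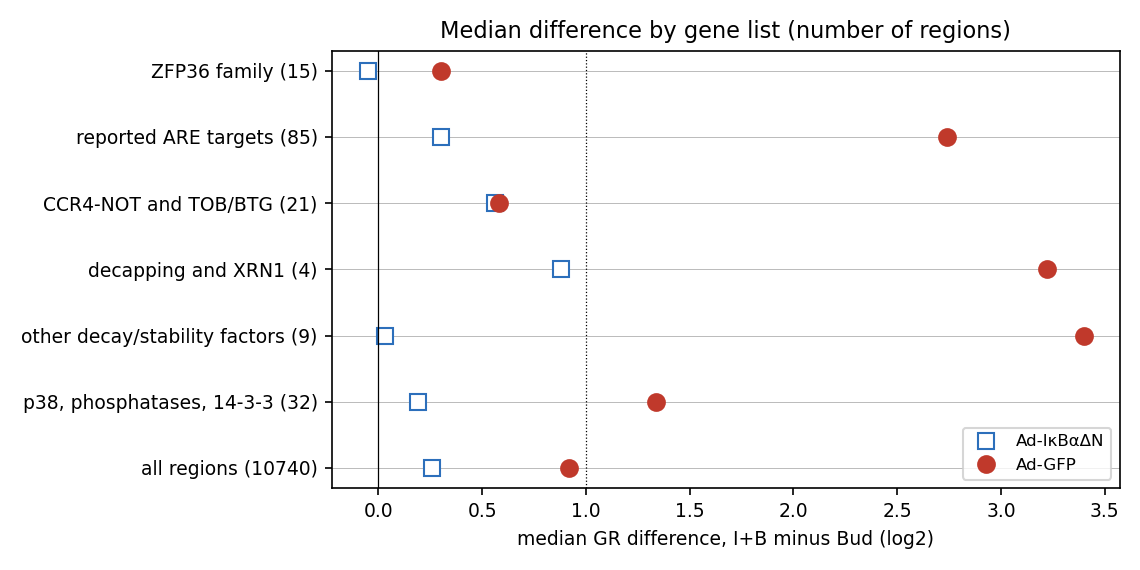
Median log2 difference in GR signal of I+B against Bud (horizontal axis) over the regions of the ZFP36 family, of 5 lists of genes of its pathway and of all regions, with the number of regions in parentheses; open squares are Ad-IκBαΔN and filled circles Ad-GFP, the dotted line marks 2-fold. The family lies at -0.05 in Ad-IκBαΔN and 0.30 in Ad-GFP, and the reported targets at 0.30 in Ad-IκBαΔN and 2.74 in Ad-GFP.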

How the data were processed

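GR ChIP-seq values of 6 groups of A549 cells were used. Libraries of RELA and input chromatin were left aside. The deposited values are log2 binding intensities, 1 per region and group, with their log2 difference from NS of the same virus, per the file headers. Tools listed in the submitters' processing notes include DiffBind 3.2, MACS2 2.2.7.1 and Bowtie2 2.4.4, on the build hg38 (GRCh38). The sources used here do not say which tool made the intensities or how a group's 2 libraries were joined. The virus labelled Ad-IκBαΔN is written Ad-IκBα in the table. In 5 of the 6 groups, (2 to the power of the value, minus 1) times 400 fell on whole multiples of a step within 0.001 steps, at 99.99% to 100% of regions. The step was 1.5 in I+B and 1 in Bud of Ad-IκBαΔN, and 3 in I+B, 1 in Bud and 1 in NS of Ad-GFP. No step was found in NS of Ad-IκBαΔN.

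Linear-model tests had been planned for values per library. With 1 value per group no test, p-value or SD was possible, and log2 differences of at least 1 were called over all 10740 regions. The counting was tested on simulated data. The members, gene lists and motifs were chosen with earlier results of these data known. Named genes were every member region, the 3 genes nearest in pattern to each member's strongest region, and up to 5 genes per list by highest signal. Other scalings (4), a pseudocount of 5, a filter on the 25% of regions with the lowest mean signal, other link distances and call sizes were tried. Coordinates count from 1. Python 3.11.15, numpy 2.4.6, pandas 2.3.3 and matplotlib 3.10.9 were used.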

Additional observations from a re-analysis of the deposited data

Results flagged for a closer look

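At 4 regions a comparison between treatments had the opposite sign in the 2 viruses and values that differed by at least 1 on the log2 scale. For I+B minus Bud, the regions 17.4 kb downstream of ZFP36L1 and 63.5 kb downstream, 43.3 kb upstream and 67.4 kb upstream of ZFP36L2 also had opposite signs, with a smaller gap. There was 1 value per group, so the difference between viruses was not tested for any of them. At the region 95.3 kb downstream of ZFP36L2, I+B minus Bud was 0.66 in Ad-IκBαΔN and -0.66 in Ad-GFP, which differ by 1.32, and both signs held under every setting (0.08 to 0.66 and -2.21 to -0.64). At the region 5.09 kb upstream of ZFP36, I+B minus Bud was -0.12 in Ad-IκBαΔN and 0.88 in Ad-GFP, which differ by -1.01, and the Ad-GFP value became -0.68 with the steps divided out. At the region 3.94 kb upstream of ZFP36, Bud minus NS was 0.94 in Ad-IκBαΔN and -0.60 in Ad-GFP, which differ by 1.54, and the Ad-IκBαΔN value became -1.71 with quantile normalization. At the region 0.461 kb downstream of ZFP36L2, Bud minus NS was 1.10 in Ad-IκBαΔN and -1.15 in Ad-GFP, which differ by 2.24, and the Ad-IκBαΔN value became -0.75 with groups centred on the unchanged class.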

How the results depend on the processing

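No paired analysis was possible because the table holds 1 value per region and group, and for the same reason no library could be left out. Differences from NS depended most on the scale. Under a common median, quantile normalization and centring on the unchanged class, the family's median for Bud against NS was 0.81, 0.35 and 0.33 in Ad-IκBαΔN and -0.11, -0.55 and -0.63 in Ad-GFP. For I+B against NS it was 0.54, 0.41 and 0.09 in Ad-IκBαΔN and -0.18, -0.86 and -0.16 in Ad-GFP, where it was 0.72 with the steps divided out. For I+B against Bud in Ad-GFP it was -1.25 with the steps divided out. At the region 11.6 kb downstream of ZFP36L1, in Ad-IκBαΔN, Bud against NS was -0.23, -0.68 and -0.71 and I+B against NS was -0.11, -0.56 and -0.56 under those 3 scalings. At the region 95.3 kb downstream of ZFP36L2, I+B against NS in Ad-GFP was -0.21, -0.93 and -0.19. Of the 60 member values against NS, 37 changed sign under some setting; for I+B against Bud this was 4 of 15 in Ad-IκBαΔN and 6 of 15 in Ad-GFP. The causes were not tested, beyond the shift of all regions that each scaling makes by construction. The filter left out 0 of the 15 regions. The family had 8 regions at 50 kb, 4 at 10 kb and 1 with genes of every type, and a GRE with 1 mismatch was in 1 region. Of 612 values of single regions under other settings, 528 stayed on their side of the 2-fold threshold, where values under it may have changed sign. A further 36 passed it, 39 dropped under it and 9 that had been past it changed sign. Values under the filter repeat the deposited ones, and dividing out the steps leaves comparisons among the Bud and NS groups unchanged. Both kinds are counted in the 528, so that count overstates how stable the values were. Depth per library is unknown, so counting error cannot be given for any signal.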
